A study of Bos taurus with 16 samples.

Results

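Corpora lutea taken on days 150-160 of pregnancy were compared with corpora lutea taken on days 10-12 of the estrous cycle, using 8 of the 16 arrays of the series. Both groups held 4 Japanese Black cows: the cyclic cows were not pregnant, and in the pregnant cows the day of artificial insemination was counted as day 1. The other 8 arrays came from cows on days 20-25 and 40-45 of pregnancy, 4 in each group. They entered the estimate of spread, and their levels are given beside some results. Total RNA of the whole gland was labelled with Cy3 and hybridised to 1-colour bovine oligonucleotide arrays, 1 cow per array. Samples were whole tissue, so fewer cells of a type and less RNA per cell cannot be told apart. Pregnant glands were also older than cyclic ones: the effects of pregnancy and of the age of the gland cannot be told apart.

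The corpus luteum forms from the ruptured follicle and secretes progesterone, the steroid that keeps the uterus in a state that can carry a pregnancy. Large and small luteal cells make the hormone, and a dense capillary bed, fibroblasts and immune cells make up the rest of the gland. At the end of a cycle without pregnancy, prostaglandin F2 alpha from the uterus, with luteal oxytocin as a partner, brings about regression of the gland. In a pregnant cow the gland persists.

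Levels are log2 signals relative to the 75th percentile of the same array, so that 0 is that percentile and a difference of 1 is a doubling. Over the 16 arrays the processed signal had a 75th percentile of 2020 to 4288, and 71.9% to 79.6% of probes were well above background. Over the tested probes without a missing value, the 8 arrays compared correlated with the others of their group at a mean of 0.969 to 0.980. Each of 2 slides held 2 arrays of every group. The slide was a term of the fit. Every group sat at its own places on the slides, and an effect of place cannot be told apart from one of the group. The small number of arrays limits the precision of every value.

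On days 150-160, 684 probes were higher (5.73%) and 501 were lower (4.19%) than in cyclic cows, 1185 of 11943 tested, or 9.92% (limma, adjusted p under 0.05). Of these, 312 were higher and 228 lower by at least 2-fold, and the groups did not overlap for 883, against 1398 of all 11943 probes. A symbol was found for 579 of the called probes, and 606 had none. With 1 probe per gene, 563 of 5738 genes were called, or 9.81%: 301 were higher (5.25%) and 262 were lower (4.57%). The median log2 change over these genes was 0.00. Without cyclic replicate 4 the number of called probes was 693, and without replicate 2 of days 150-160 it was 704. The call of 509 probes stood whichever 1 of the 16 arrays was left out.

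The called genes were sorted into 54 functional lists, which held 305 of the 563. Among lists of at least 20 tested genes, the shares of called genes ran highest for immediate early and clock genes among the rises, and for granulocyte genes, insulin-like growth factor and imprinted genes and peptide hormones among the falls. The granulocyte share rests on dim probes: with values under background raised to it, 2 of the list's genes were called in place of 6. Of the 15 collagens tested, 7 were lower. Genes of progesterone synthesis, cholesterol synthesis and the cytosolic ribosome gave no call.

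**Figure D1:**
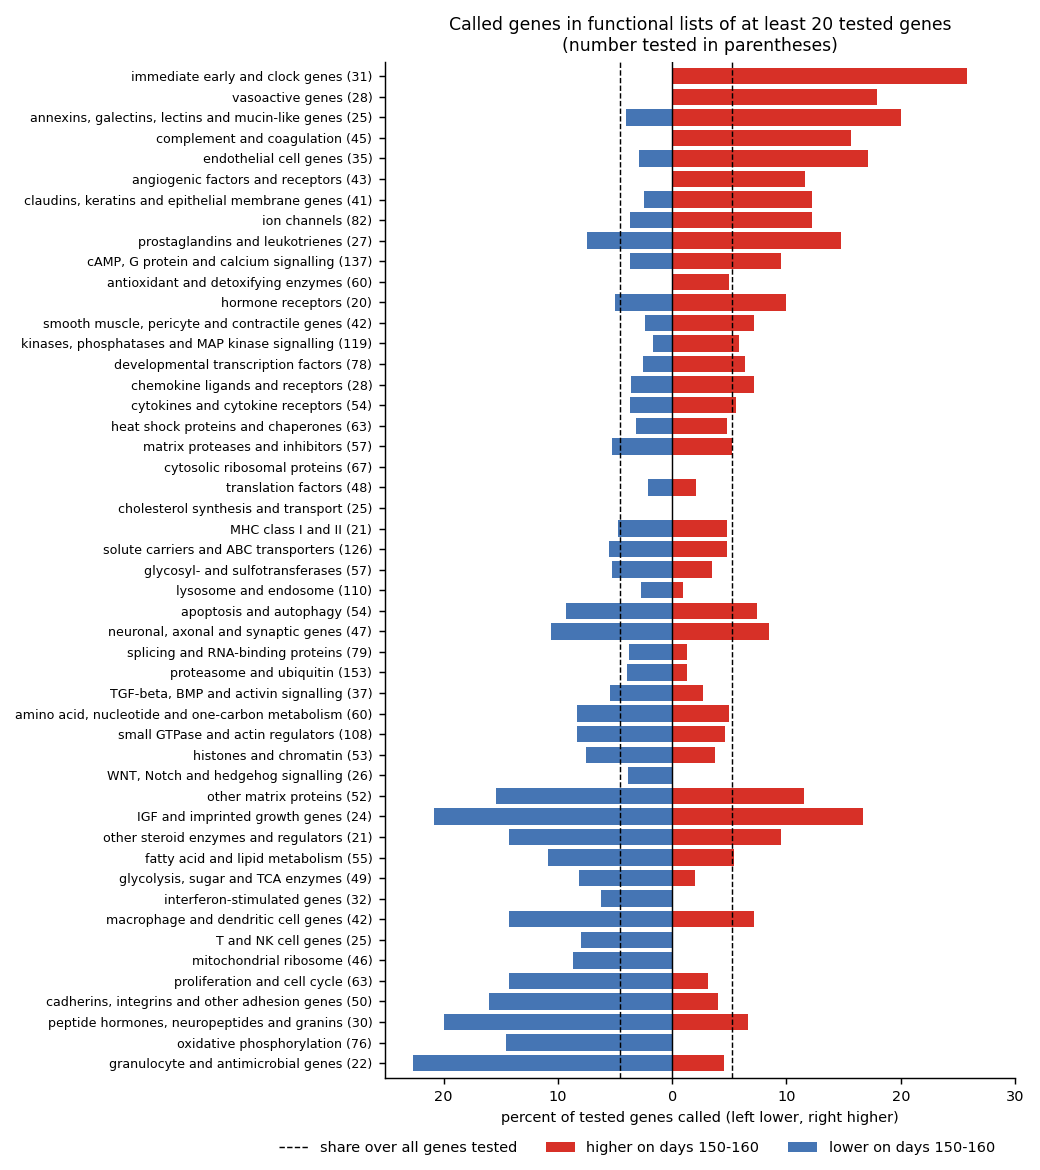
Share of tested genes called higher (right, red) or lower (left, blue) on days 150-160 than in cyclic cows, in percent, for each functional list of at least 20 tested genes; the dashed lines mark the shares over all 5738 genes, 5.25% higher and 4.57% lower. Immediate early and clock genes reached 25.8% on the right, and granulocyte and antimicrobial genes 22.7% on the left, a share that rests on dim probes.

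Probe sequences are shown for 4 genes described below, because each is the strand of bases on which its measurement rests. They are 60 bases long, written from 5′ to 3′, and are the array's own. At least 1 reading frame of each is free of stop codons. In the probe of COL4A1, a chain of basement membrane collagen, the capitals mark 7 evenly spaced glycine codons, as in the repeat of a collagen helix.
COL4A1: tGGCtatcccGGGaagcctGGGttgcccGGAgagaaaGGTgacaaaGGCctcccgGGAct
FN1: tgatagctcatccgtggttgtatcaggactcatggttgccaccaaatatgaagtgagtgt
HP: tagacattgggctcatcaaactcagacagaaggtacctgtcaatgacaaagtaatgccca
IGFBP2: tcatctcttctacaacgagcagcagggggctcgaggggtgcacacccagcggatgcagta
COL4A1 and the fibronectin gene FN1 fell, and the haptoglobin gene HP and the growth factor binding protein gene IGFBP2 rose. No other named gene has its probe printed.

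The largest rises were spread over genes of different functions. HP, which encodes the haemoglobin-binding plasma protein haptoglobin, had levels of -6.46, -5.72, -5.57 and -3.13 in the cyclic cows and -2.04, -2.72, -0.12 and -1.92 in the pregnant ones. The lowest pregnant cow was only slightly above the highest cyclic one, and the log2 change was 3.52 (SE 0.60, adjusted p = 0.0036). CES1, a carboxylesterase, rose from a mean of -2.42 to 1.19 (SE 0.68 of the change of 3.61, adjusted p = 0.0062). ETNPPL, an enzyme that breaks down phosphoethanolamine, rose by 3.71 (SE 0.87, adjusted p = 0.019). Alpha-1-antitrypsin, a protease inhibitor encoded by SERPINA1, was not well above background in any cyclic cow and was well above it in all 4 pregnant cows, at -4.50, -4.94, -4.37 and -5.59. Where no array of a group was well above background, a fold is a bound: the mean of the bright group is set against a floor per array, the dimmest signal that still counted as well above background, or the probe's own if that was higher. On this basis SERPINA1 was at least 4.19-fold higher, the eotaxin gene CCL11 at least 608-fold, the claudin gene CLDN10 at least 9.17-fold, BREH1 at least 6.91-fold (from 3 pregnant cows, as 1 spot was an outlier) and SCP2D1 at least 2.43-fold.

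Among the largest falls, FOXA3, a forkhead transcription factor, had levels of -2.78, -1.34, -2.71 and -1.49 in cyclic cows and -5.37, -5.05, -5.89 and -3.93 in pregnant cows. The groups were more than 1 unit apart, and the change was -2.98 (SE 0.56, adjusted p = 0.0063). SPON1, the matrix-bound protein spondin 1, fell by 2.87 (SE 0.54, adjusted p = 0.0063). TNFAIP6, which links hyaluronan in the matrix that surrounds the ovulating oocyte, fell from 2.63, 0.80, 1.46 and 1.92 to -1.17, -1.10, -0.99 and -0.60. That change was -2.67 (SE 0.31, adjusted p = 0.00037), and the 4 pregnant cows lay within a narrow range. TYR, the enzyme tyrosinase of pigment synthesis, changed by -2.94 (SE 0.56, adjusted p = 0.0063) and NUDT10, a phosphohydrolase, by -2.64 (SE 0.49, adjusted p = 0.0056). NDP, the secreted ligand norrin, changed by -3.25 (SE 0.74, adjusted p = 0.016), with an adjusted p of 0.052 without replicate 2 of days 150-160. OPALIN and MYBPC3 were not well above background in any pregnant cow and were at least 4.52-fold and 2.04-fold lower. With values under background raised to it they did not pass (adjusted p = 0.086 and 0.26).

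**Figure D2:**
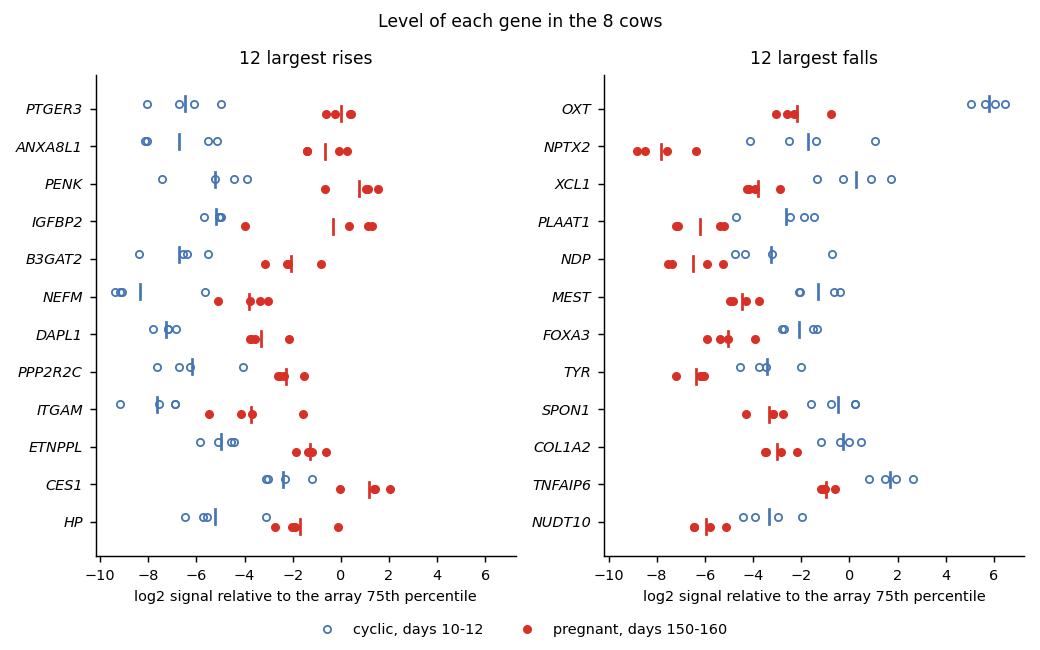
Levels, as log2 signal relative to the array's 75th percentile, of the 12 genes with the largest rises and the 12 with the largest falls among genes measured in both groups; each point is 1 cow, open for cyclic and filled for pregnant cows, and the bars are group means. The groups do not overlap for any of the 24 genes, which was a condition of their choice; IGFBP2 in pregnant cows spreads from -3.99 to 1.27.

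Genes of progesterone synthesis were not called on their brightest probes. Of 14 tested, 0 passed by limma, with 5 at an unadjusted p under 0.05, against 1489 of all 5738 genes. Of the 14 changes 11 were positive and 3 negative, and the median log2 change was 0.24. The count of called genes was 1 without cyclic replicate 2 or 3, or without replicate 1, 3 or 4 of days 150-160. A dimmer probe of CYB5A, a member of this list, was called lower by limma at -0.55 (adjusted p = 0.036). The brighter CYB5A probe, used for the count, gave 0.09 (adjusted p = 0.78). STAR, which moves cholesterol into mitochondria, had levels of 6.99, 6.87, 8.06 and 7.57 in cyclic cows and 7.53, 7.6, 7.57 and 7.77 in pregnant cows. Cyclic cows spread widely around the pregnant ones, with a difference of 0.25 (SE 0.17, adjusted p = 0.37). The difference was 0.28 (SE 0.10, adjusted p = 0.11) for CYP11A1, which cleaves the side chain of cholesterol, and 0.41 (SE 0.15, adjusted p = 0.10) for HSD3B1, which makes progesterone. LHCGR, the receptor for luteinising hormone, differed by 0.09 (SE 0.42, adjusted p = 0.91). Of 25 genes of cholesterol synthesis and transport 0 were called, with 3 at an unadjusted p under 0.05 and a median of 0.13. That median was 0.019 without replicate 2 of days 150-160, and 1 gene was called without cyclic replicate 1. The luteal cell markers, 7 in all, had a summed level of 349 to 602 times the 75th percentile in cyclic cows and 452 to 541 in pregnant cows. Of these markers 1, OXT, was called lower.

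Of 21 tested enzymes and regulators of other steroid pathways, 2 were called higher (9.52%) and 3 lower (14.3%), against 5.25% and 4.57% over all genes. CYP17A1, the enzyme that makes androgens from progesterone precursors, had levels of -3.24, -3.12, -2.36 and -3.27 in cyclic cows. In pregnant cows they were -1.51, -0.15, -1.52 and 1.56, so that 1 cow lay about 3 units above the lowest. The change was 2.59 (SE 0.53, adjusted p = 0.0094). The means on days 20-25 and 40-45 were -2.89 and -3.18, near the cyclic mean of -3.0. HSD11B1 and HSD11B2, which interconvert active and inactive glucocorticoids, changed by -1.53 and -2.06 (adjusted p = 0.041 for both). Each of these calls was lost in 10 of the 16 fits that left out 1 array, with adjusted p up to 0.114 and 0.118. CYP11B1, a steroid 11-beta-hydroxylase, was well above background in 3 cyclic cows and in no pregnant cow, and at least 2.23-fold lower. It did not pass with values under background raised to it (adjusted p = 0.17). The count of 5 called members was 2 without cyclic replicate 1, replicate 1 or 2 of days 20-25, or replicate 1 or 2 of days 150-160, and 3 without cyclic replicate 4, replicate 1 or 2 of days 40-45, or replicate 4 of days 150-160.

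Of 20 hormone receptors tested, PRLR and RARB were called higher (10.0%) and ESR2 lower (5.0%), against 5.25% and 4.57% over all genes. PRLR, the receptor for prolactin, had levels of -2.06, -2.30, 1.03 and 0.20 in cyclic cows, a range of over 3 units, and of 2.15, 2.10, 1.59 and 1.88 in pregnant cows. All pregnant cows were above all cyclic ones, and the change was 2.71 (SE 0.52, adjusted p = 0.0070). SOCS2, a feedback inhibitor of prolactin and growth hormone signalling, rose from 0.21, 0.04, -0.10 and -0.50 to 1.59, 2.10, 1.79 and 1.36. Its change of 1.80 (SE 0.21, adjusted p = 0.00037) was large against the spread within either group. RARB, a retinoic acid receptor, rose by 1.80 (SE 0.45, adjusted p = 0.024) and lost its call in 3 of the fits without 1 array, with adjusted p up to 0.070. The probe of ESR2, an estrogen receptor, was not well above background in any pregnant cow. With values under background raised to it, its difference was 0.06 (adjusted p = 0.89), so no direction is drawn from it.

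Peptide hormones and the proteins of secretory granules were lower in 6 of 30 genes (20.0%) and higher in 2 (6.67%), against 4.57% and 5.25% over all genes. OXT, the oxytocin precursor, had levels of 6.47, 5.64, 5.04 and 6.03 in cyclic cows and -2.28, -0.77, -3.03 and -2.60 in pregnant cows, about 250-fold apart (adjusted p = 1.4e-06). It went from among the brightest probes to below the 75th percentile. CHGB, the granule protein chromogranin B, changed by -1.92 (SE 0.33, adjusted p = 0.0039), and FSTL3, an activin-binding protein, by -1.66 (SE 0.30, adjusted p = 0.0053). FSTL3 was at 4.26, 4.86, 4.35 and 4.38 in cyclic cows and at 2.29, 2.26, 3.69 and 2.98 in pregnant ones. PENK, the enkephalin precursor, rose from a mean of -5.24 to 0.76 (SE 1.00 of the change, adjusted p = 0.0032). GAST was the other gene called higher, and ASIP, NTS and PCSK1 the others called lower. Without replicate 1 of days 150-160 the count of called members was 5 in place of 8.

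Genes that act on prostaglandins were called in 6 of 27 cases, 4 higher (14.8%) and 2 lower (7.41%). Over all genes 5.25% were higher and 4.57% lower. PTGFR, the receptor for prostaglandin F2 alpha, had levels of 3.84, 3.40, 4.71 and 4.28 in cyclic cows and of 4.87, 5.13, 4.83 and 4.81 in pregnant cows. The pregnant cows were close together and just above the highest cyclic cow, with a change of 0.85 (SE 0.20, adjusted p = 0.018). Without replicate 2 of days 150-160 its adjusted p was 0.058. SLCO2A1, the prostaglandin transporter, rose by 1.39 (SE 0.26, adjusted p = 0.0059). PTGER3, a receptor for prostaglandin E2, rose from -8.05, -6.70, -6.08 and -4.98 to -0.62, 0.43, -0.25 and 0.40, a change of 6.44 (SE 0.47, adjusted p = 1e-05). AKR1B1, an aldo-keto reductase that can make prostaglandin F2 alpha, fell from 2.31, 2.19, 2.43 and 2.32 to 1.29, 1.38, 1.13 and 1.73. The 4 cyclic cows differed little, and the change was -0.93 (SE 0.17, adjusted p = 0.0051). TBXA2R, the thromboxane receptor, was also called higher. The phospholipase gene PLA2G4A was not well above background in any pregnant cow, and its difference was 0.06 (adjusted p = 0.89) once values under background were raised to it.

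Genes of fatty acid and lipid metabolism were called lower in 6 of 55 cases (10.9%) and higher in 3 (5.45%). Over all genes these shares were 4.57% and 5.25%. The 6 include PLA2G4A, which was not well above background in any pregnant cow, as given above. They also include PLA2G2D1, called on its brighter probe at -1.46 while its other probe gave 0.37. CD36, a scavenger receptor that takes up fatty acids and lipoproteins, had levels of 0.19, 0.76, -1.09 and 0.42 in cyclic cows and of -2.47, -2.74, -2.12 and -1.52 in pregnant cows. The change was -2.28 (SE 0.44, adjusted p = 0.0067), and the means on days 20-25 and 40-45 were -1.61 and -2.69. The acyltransferase gene PLAAT1 changed by -3.58 (SE 0.70, adjusted p = 0.0075). The 9 called members became 4 without cyclic replicate 4 and 5 without replicate 2 of days 20-25.

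Nuclear genes for the mitochondrial respiratory chain were slightly lower as a group. Of 76 genes for oxidative phosphorylation, 71 had a negative log2 change, the median was -0.28, and 11 were called lower (14.5%, against 4.57% over all genes). The range went from -0.82 to 0.34, so that no member changed by as much as 2-fold. NDUFB1, a subunit of complex I, had levels of 3.44, 3.30, 3.46 and 3.46 in cyclic cows and 2.75, 3.04, 3.11 and 2.79 in pregnant cows. Its change was -0.49 (SE 0.11, adjusted p = 0.013). UQCR11 of complex III and NDUFA3 of complex I changed by -0.61 and -0.63 (adjusted p = 0.0098 for both), with overlapping groups. ATP5F1E of the ATP synthase changed by -0.43 (SE 0.10, adjusted p = 0.022). Of 46 proteins of the mitochondrial ribosome, 41 had a negative change with a median of -0.20 (-0.30 on slide 1 and -0.08 on slide 2), and 4 were called lower (8.7%). Among the 4 were MRPS25 at -0.75 (SE 0.14, adjusted p = 0.0051) and MRPL36 at -0.51 (SE 0.11, adjusted p = 0.011). Of 67 cytosolic ribosomal proteins 0 were called by limma, with a median of -0.07. An unadjusted p under 0.05 was found for 3 of them, against 1489 of all 5738 genes. The medians for oxidative phosphorylation were -0.38 on slide 1 and -0.18 on slide 2, and between -0.35 and -0.19 without any 1 array. The count of 11 was less steady: 4 without cyclic replicate 1 or cyclic replicate 4, 5 without replicate 1 of days 150-160, 17 without replicate 4 of days 20-25, 5 without the slide term, and 7 with arrays scaled to the median. Of 49 enzymes of glycolysis and the citric acid cycle 4 were lower (8.16%) and 1 higher (2.04%), together near the 9.81% called over all genes. The falls included MDH2 at -0.49 (adjusted p = 0.024) and IDH3B at -0.48 (adjusted p = 0.031). The glycogen phosphorylase PYGB was higher at 0.70 (adjusted p = 0.011). The calls of MDH2 and IDH3B were each lost without cyclic replicate 4, at adjusted p of 0.077 and 0.087, and the count of 5 was then 1. It was 2 without cyclic replicate 1 or replicate 1 or 4 of days 150-160, and 3 without replicate 2 of days 150-160. The 4 called genes of the mitochondrial ribosome were 2 without cyclic replicate 1 or 4 or replicate 1 of days 150-160, and 7 without replicate 4 of days 20-25.

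The extracellular matrix changed in both directions. Among the collagens 7 of 15 were lower (46.7%, against 4.57% over all genes), the share higher was 0%, and the median log2 change was -0.92. COL1A2, a chain of the main fibrillar collagen, had levels of 0.46, -0.02, -1.17 and -0.37 in cyclic cows and -2.18, -3.50, -2.82 and -3.46 in pregnant cows. The groups were 1 unit or more apart. The difference was 6.58-fold, a change of -2.72 (SE 0.41, adjusted p = 0.0019). The probe of COL4A1 shown above read -3.86, -3.74, -4.26 and -3.82 in cyclic cows and -4.69, -5.23, -5.08 and -5.03 in pregnant ones (change -1.09, SE 0.19, adjusted p = 0.0043). COL11A1 changed by -1.24 (SE 0.28, adjusted p = 0.016), and COL3A1, COL4A6 and COL18A1 were also called lower. COL2A1 was called on 1 probe at -1.37, while its other probe gave 0.15. The number of called collagens was 3 without cyclic replicate 1, cyclic replicate 2, or replicate 2 or 4 of days 150-160, while the median stayed between -1.11 and -0.75 without any 1 array and was -0.58 with normexp background correction. The 6 fibroblast markers tested all had negative changes, with 2 called, and their summed level was 47.1 to 73.4 times the 75th percentile in cyclic cows and 31.2 to 43.6 in pregnant cows. The part of fibroblast number in the falls was not tested.

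Of 52 other matrix proteins 8 fell (15.4%) and 6 rose (11.5%), against 4.57% and 5.25% over all genes. FN1, fibronectin, was read by 2 probes that changed by -1.95 (SE 0.25, adjusted p = 0.0006) and, for the sequence shown above, by -1.92 (SE 0.32, adjusted p = 0.0032). The brighter probe gave 1.47, 1.84, 0.98 and 1.57 in cyclic cows and -0.62, -0.31, 0.00 and -1.02 in pregnant cows. SPP1, osteopontin, had levels of 0.79, 3.39, 0.21 and 0.14 in cyclic cows, with 1 cow far above the others, and -1.69, -0.30, -0.97 and -2.69 in pregnant cows. It changed by -2.54 (SE 0.64, adjusted p = 0.024) and lost its call in 2 fits without 1 array, at adjusted p up to 0.069. Both probes of the proteoglycan VCAN were lower, at -2.28 and -2.50 (adjusted p = 0.037 and 0.021). In the other direction, ADAMTSL3, a secreted protein of the matrix, rose from -2.04, -3.70, -2.08 and -2.19 to 0.93, 1.53, 0.90 and 0.56. This was a change of 3.48 (SE 0.41, adjusted p = 0.00041), and the means on days 20-25 and 40-45, -1.30 and -0.04, lay between those of cyclic and late pregnant cows. PRELP, a small leucine-rich proteoglycan, rose by 1.00 (SE 0.22, adjusted p = 0.015), as did NID1 of basement membranes by 0.85 (SE 0.21, adjusted p = 0.021). The NID1 groups overlapped. The count of 14 was 5 to 8 without cyclic replicate 2, cyclic replicate 4 or any 1 array of days 150-160.

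Of 50 cell adhesion genes 8 were called lower and 2 higher, while 26 changes were positive and 24 negative, with a median of 0.08. CD44, the hyaluronan receptor, changed by -2.17 (SE 0.40, adjusted p = 0.0052), from -1.23, 0.50, -1.39 and -0.77 to -1.69, -3.02, -3.51 and -3.35. The highest pregnant cow was just below the lowest cyclic one. THY1, a surface protein of fibroblasts and other cells, changed by -1.87 (SE 0.36, adjusted p = 0.0068). NCAM1, the neural cell adhesion molecule, changed by -2.39 (SE 0.55, adjusted p = 0.016) and was well above background in 1 of 4 pregnant cows. ITGAM, the alpha chain of a leukocyte integrin, rose by 3.91 (SE 0.76, adjusted p = 0.0074), with -4.14, -1.58, -5.46 and -3.69 in pregnant cows against a cyclic maximum of -6.87. ALCAM, ITGAV, NECTIN2, SELE and PERP were the other genes called lower, and NEGR1 the other called higher. The count was 5 without replicate 2 of days 150-160.

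**Figure D3:**
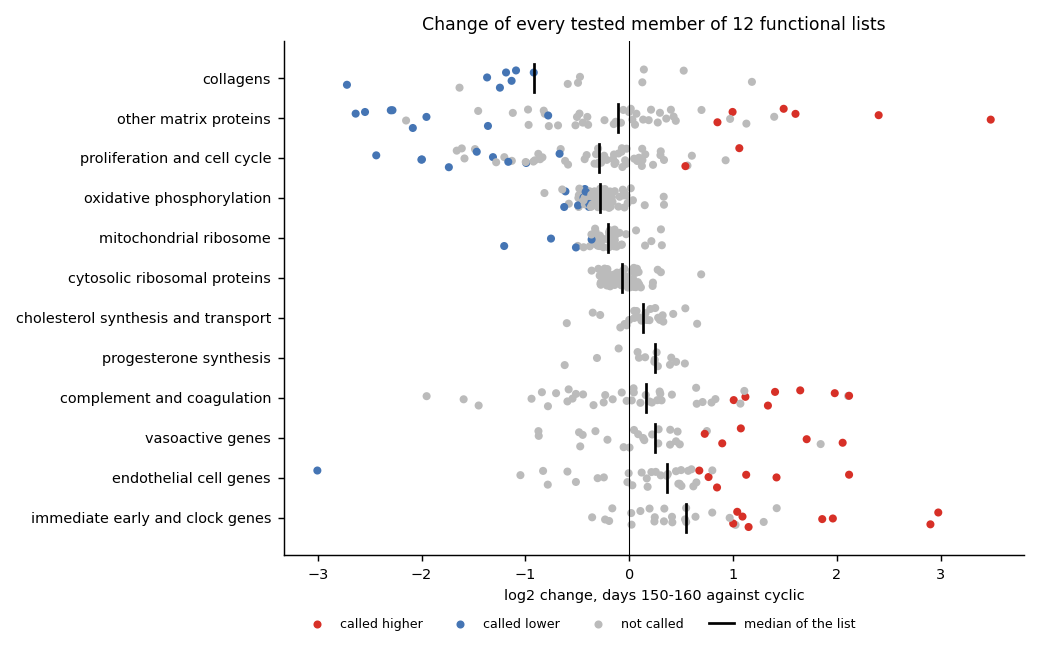
Log2 change on days 150-160 against cyclic cows of every tested member of 12 functional lists; each point is 1 gene, red if called higher, blue if called lower and grey if not called, and the black bar is the median of the list. The points of oxidative phosphorylation lie close together around -0.28, while those of the collagens spread from -2.72 to 1.18 with a median of -0.92.

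Of 63 genes of proliferation and the cell cycle 9 fell (14.3%) and 2 rose (3.17%), against 4.57% and 5.25% over all genes. The list had 47 negative changes and a median of -0.29. The median was -0.18 without cyclic replicate 1, -0.14 on slide 2 and -0.13 with normexp background correction. AURKB, a kinase of the dividing chromosome, had levels of -1.09, -2.02, -2.0 and -1.96 in cyclic cows and -3.68, -4.38, -4.43 and -4.31 in pregnant cows, where replicate 1 was above the rest in both groups. It changed by -2.44 (SE 0.30, adjusted p = 0.00045), and the means on days 20-25 and 40-45 were -2.57 and -3.59. PRC1, which organises the spindle midzone, changed by -1.74 (SE 0.38, adjusted p = 0.013). The mitotic cyclin CCNB2 changed by -2.0 (SE 0.46, adjusted p = 0.016), and at an adjusted p of 0.052 without replicate 2 of days 150-160. Both probes of CDCA7, a gene of the S phase, were lower, at -1.47 and -1.30 (adjusted p = 0.016 and 0.018). RB1, which holds cells out of the cycle, and PTTG1 were the 2 genes called higher. The count of 11 was 6 without cyclic replicate 2, cyclic replicate 4, or replicate 1 or 2 of days 150-160, and 7 without replicate 3 or 4 of days 150-160 or replicate 1 of days 40-45. Among 53 genes of histones and chromatin, DNMT3A, a DNA methyltransferase, fell on both of its probes, by 0.99 and 0.96 (adjusted p = 0.0025 and 0.0074). CBX7, a Polycomb protein, rose from 0.32, 0.07, 0.81 and 0.49 to 2.0, 1.84, 1.84 and 1.63, a change of 1.40 (SE 0.16, adjusted p = 0.00037).

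Growth genes of the insulin-like growth factor system and imprinted genes were called in 9 of 24 cases. Of these 4 were higher (16.7%) and 5 lower (20.8%), against 5.25% and 4.57% over all genes. IGF2, a fetal growth factor, had levels of 0.53, -0.13, -0.28 and -0.14 in cyclic cows and -1.51, -2.47, -2.72 and -1.37 in pregnant cows. The change was -2.01 (SE 0.30, adjusted p = 0.0018). MEST, an imprinted gene expressed from the paternal copy, changed by -3.14 (SE 0.45, adjusted p = 0.0014) on its brighter probe and by -1.37 (SE 0.35, adjusted p = 0.028) on its other one. PLAGL1, IGFBP5 and PEG3 were also called lower. IGFBP6, a binding protein with a preference for IGF2, rose from 1.27, 0.75, 1.30 and 1.40 to 3.19, 2.51, 3.14 and 3.49, by 1.91 (SE 0.18, adjusted p = 8.2e-05). IGFBP2, whose probe is shown above, was at -5.69, -5.01, -5.05 and -4.98 in cyclic cows. In pregnant cows it was at 1.13, -3.99, 0.35 and 1.27: 3 cows were far above the cyclic group, and replicate 2 was about 1 unit above it. Its change was 4.87 (SE 1.02, adjusted p = 0.011).

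Genes of endothelial cells and of the factors that act on vessels were called higher more often than lower. Of 35 endothelial genes 6 were higher (17.1%) and 1, SELE, was lower (2.86%), against 5.25% and 4.57% over all genes. The median of the 35 was 0.36. THBD, thrombomodulin, which restrains clotting on the vessel wall, had levels of -0.81, -0.71, -0.92 and -1.14 in cyclic cows and 1.94, 0.86, 0.49 and 1.60 in pregnant cows. Its change was 2.12 (SE 0.29, adjusted p = 0.0012). ENG, a TGF-beta co-receptor of endothelium, rose by 1.13 (SE 0.24, adjusted p = 0.012), and TEK, the angiopoietin receptor, by 0.85 (SE 0.19, adjusted p = 0.013). FLT1, a receptor for vascular endothelial growth factor, rose by 1.42 (SE 0.33, adjusted p = 0.018), with an adjusted p of 0.057 without replicate 1 of days 150-160. The 11 endothelial markers, 2 of them called, had a summed level of 19.1 to 31.2 times the 75th percentile in cyclic cows and of 31.5 to 56.5 in pregnant cows. These ranges nearly touched. On days 20-25 the sum was 33.5 to 45.3, also above the cyclic range, and on days 40-45 it was 28.8 to 39.5. The part of endothelial cell number in the rises of endothelial genes was not tested. The median over the 35 genes was 0.60 on slide 1 and 0.11 on slide 2. The count of 7 was 4 without cyclic replicate 4, 3 without replicate 1 of days 150-160 and 1 on the 8 compared arrays alone.

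Of 43 angiogenic factors and receptors 5 were higher (11.6%) and 0 lower, against 5.25% and 4.57% over all genes. The list had 26 positive and 17 negative changes. Its median was 0.06, with 0.28 on slide 1 and -0.08 on slide 2. EPAS1 was counted both here and with the endothelial genes. Among the 5, FGF1 rose from -3.12, -3.05, -3.35 and -2.72 to -2.43, -1.65, -1.75 and -1.85 (change 1.14, SE 0.20, adjusted p = 0.0038). BTC, a ligand of the epidermal growth factor receptor, rose by 1.69 (SE 0.38, adjusted p = 0.015), HGF by 1.28 (SE 0.21, adjusted p = 0.0030) and FGFR1 by 1.44 (SE 0.31, adjusted p = 0.012). HGF groups overlapped, and 2 of 4 cyclic cows were well above background. The 2 probes of VEGFA, the main angiogenic ligand of the gland, changed by 0.79 (adjusted p = 0.068) and 0.89 (adjusted p = 0.039). Those of FGFR2, a fibroblast growth factor receptor, changed by -1.80 (adjusted p = 0.080) and -1.77 (adjusted p = 0.0016). Of 28 vasoactive genes 5 were higher (17.9%). ECE2, an endothelin-converting enzyme, rose from -0.79, -0.63, 0.76 and 0.15 to 1.66, 2.25, 1.91 and 1.90 (change 2.06, SE 0.35, adjusted p = 0.0036). ACE, the angiotensin-converting enzyme, rose by 0.90 (SE 0.20, adjusted p = 0.013) and NPR2, the receptor of C-type natriuretic peptide, by 0.73 (SE 0.12, adjusted p = 0.0035). Of 42 contractile genes 4 were called, a share near the 9.81% over all genes: 3 rose (7.14%) and 1 fell (2.38%). LMCD1, a LIM domain protein of muscle, rose by 1.92 (SE 0.31, adjusted p = 0.0029) and the myosin light chain gene MYL9 by 0.84 (SE 0.16, adjusted p = 0.0076). This count of 4 was 2 without replicate 2 and 7 without replicate 3 of days 150-160.

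Complement and coagulation genes were higher in 7 of 45 cases (15.6%), against 5.25% over all genes. C1R, a protease that starts the classical complement cascade, had levels of 0.84, 0.72, 0.68 and 0.75 in cyclic cows and 1.65, 2.10, 2.44 and 2.15 in pregnant cows. It rose by 1.34 (SE 0.18, adjusted p = 0.0012) in cows that differed little within a group. Its partner C1S, C7 of the membrane attack complex and the inhibitor SERPING1 were also called higher. CD59, which protects host cells from the attack complex, rose by 1.12 (SE 0.19, adjusted p = 0.0035), and FGG, a chain of fibrinogen, by 1.98 (SE 0.39, adjusted p = 0.0080). Without cyclic replicate 1 the number called was 12, and on the 8 compared arrays alone it was 4. The list had 27 positive and 18 negative changes. Its median was 0.16, with 0.41 on slide 1 and -0.02 on slide 2. THBD, described above with the endothelial genes, was among the 7.

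Immune cell genes went in both directions. Of 42 macrophage and dendritic cell genes 6 were lower (14.3%) and 3 higher (7.14%), against 4.57% and 5.25% over all genes. CD68, a lysosomal protein of macrophages, fell from -1.17, -1.03, -2.32 and -1.82 to -2.90, -2.90, -3.36 and -3.47 (change -1.57, SE 0.24, adjusted p = 0.0018). TIMD4, a receptor for dying cells, changed by -2.22 (SE 0.33, adjusted p = 0.0016), and FCGR1A, an antibody receptor, by -1.44 (SE 0.30, adjusted p = 0.011) with overlapping groups. ITGAM, described above, CYBB and MYD88 were higher. The 6 macrophage markers had a summed level of 7.08 to 19.6 times the 75th percentile in cyclic cows and of 6.33 to 13.9 in pregnant cows, ranges that overlapped. Of these 6, CD68 and MRC1 were called lower, 5 changes were negative and the median was -0.50. XCL1, a chemokine of lymphocytes, changed by -4.07 (SE 0.67, adjusted p = 0.0030). But the summed level of 7 T or NK cell markers was 0.186 to 0.830 in cyclic cows and 0.307 to 1.06 in pregnant cows. Of the 7, 0 were called by limma and 0 had an unadjusted p under 0.05, against 1489 of all 5738 genes. PYCARD, the inflammasome adaptor, rose from -1.83, -1.65, -2.30 and -2.24 to 0.47, 0.63, -0.97 and 0.39 (change 2.14, SE 0.29, adjusted p = 0.00093).

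Of 22 granulocyte and antimicrobial genes 5 were called lower (22.7%), and HP higher (4.55%), against 4.57% and 5.25% over all genes. CATHL4, a cathelicidin, was at -5.48, -4.90, -6.45 and -4.50 in cyclic cows, all well above background, and in no pregnant cow was it well above background. The fall was at least 2.16-fold, and at least 2.10-fold for the defensin gene DEFB4A. With values under background raised to it neither passed (adjusted p = 0.051 and 0.21), and 2 members of the list were called in place of 6. No fold is given for CATHL3. Of the 6 granulocyte markers, CATHL1, CATHL3 and CATHL4 were not well above background in any pregnant cow. Their summed level with the others was 0.573 to 3.16 in cyclic cows and 0.987 to 2.10 in pregnant cows. Of 32 interferon-stimulated genes 2 were lower (6.25%), near the share over all genes. They were IFI30, a thiol reductase of antigen processing, at -1.31 (SE 0.19, adjusted p = 0.0017), and SAMHD1 at -0.96 (SE 0.27, adjusted p = 0.041). SAMHD1 lost its call in 13 of 16 fits without 1 array, with adjusted p up to 0.113.

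Immediate early and clock genes were higher in 8 of 31 cases (25.8%), against 5.25% over all genes. The list had 27 positive changes and a median of 0.55. DUSP1, a phosphatase induced by stress and glucocorticoids, had levels of 0.78, 0.22, 1.06 and 0.45 in cyclic cows and 2.77, 2.72, 1.61 and 2.86 in pregnant cows. It rose by 1.86 (SE 0.40, adjusted p = 0.011), and pregnant replicate 3 was about 1 unit below the other pregnant cows. ZBTB16, a transcription factor known to respond to progesterone and glucocorticoids, rose from -5.27, -6.33, -4.60 and -4.34 to -2.20, -2.17, -2.08 and -2.47 (change 2.90, SE 0.42, adjusted p = 0.0014). HLF, a factor with clock-driven expression, rose by 1.96 (SE 0.25, adjusted p = 0.00066). EGR1 rose by 1.09 (SE 0.27, adjusted p = 0.022) with overlapping groups and an adjusted p of 0.066 without replicate 1 of days 150-160. FOS, JUN, EGR4 and GADD45B were the other 4 called. The count was 3 without cyclic replicate 1 or replicate 1 of days 150-160, 4 without replicate 4 of days 150-160, and 5 without cyclic replicate 4 or replicate 2 of days 150-160.

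Of 54 genes of apoptosis and autophagy 4 were higher (7.41%) and 5 lower (9.26%), against 5.25% and 4.57% over all genes. The median log2 change of the 54 was -0.01. CASP6, a caspase, changed by -0.80 (SE 0.13, adjusted p = 0.0027), and BAK1, which opens the mitochondrial outer membrane, by -0.88 (SE 0.18, adjusted p = 0.0080). FAS, a death receptor, rose by 1.28 (SE 0.29, adjusted p = 0.016). BCL2, which opposes BAK1, was also among the 5 called lower. Of 63 heat shock proteins and chaperones 3 were higher (4.76%) and 2 lower (3.17%), both under the shares over all genes. HSPB8, a small heat shock protein, was at -1.84 (SE 0.34, adjusted p = 0.0056). These 5 calls were 2 without cyclic replicate 1 or 4, replicate 2 of days 20-25 or replicate 3 of days 150-160, 3 without replicate 4 of days 150-160 and 8 without cyclic replicate 3. HSPA1A rose by 0.97 (adjusted p = 0.015) on 1 probe and gave 0.45 (adjusted p = 0.51) on the other.

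Genes of epithelial membranes were higher in 5 of 41 cases (12.2%) and lower in 1 (2.44%), against 5.25% and 4.57% over all genes. MAL, a protein of apical membrane traffic, had levels of -4.64, -4.13, -3.86 and -5.98 in cyclic cows and 0.21, -1.96, -1.64 and -1.40 in pregnant cows. It rose by 3.46 (SE 0.54, adjusted p = 0.0023). WT1, a transcription factor of the ovarian surface and follicle, rose by 1.00 (SE 0.16, adjusted p = 0.0027). SPINT1, an inhibitor of membrane proteases, changed by -2.22 (SE 0.34, adjusted p = 0.0021), although 1 pregnant cow at -3.50 overlapped the cyclic cows. The 6 epithelial markers tested, 1 of them called, had a summed level of 10.2 to 23.3 in cyclic cows and of 7.21 to 14.3 in pregnant cows. ANXA9 and ANXA3, annexins that bind membranes, rose by 1.57 (SE 0.23, adjusted p = 0.0014) and 0.83 (SE 0.16, adjusted p = 0.0063).

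The lists of signalling and transport genes were among the largest. Over all genes, 5.25% were called higher and 4.57% lower. Of 137 genes of cAMP, G protein and calcium signalling 13 were higher (9.49%) and 5 lower. PDE6G, an inhibitory subunit of a cyclic GMP phosphodiesterase, rose by 1.67 (SE 0.20, adjusted p = 0.00043), the adhesion receptor ADGRE5 by 1.23 (SE 0.18, adjusted p = 0.0015) and the orphan receptor GPR160 by 1.32 (SE 0.22, adjusted p = 0.0033). Of 82 ion channel genes 10 were higher (12.2%) and 3 lower. GJA5, a gap junction protein of arterial endothelium, rose from 0.03, -0.34, -0.38 and -1.54 to 0.77, 1.60, 1.17 and 1.68 (change 1.86, SE 0.32, adjusted p = 0.0037). KCNMB1, a subunit of a potassium channel of smooth muscle, rose by 1.59 (SE 0.31, adjusted p = 0.0076). Of 126 solute carriers and ABC transporters 6 were higher (4.76%) and 7 lower (5.56%), near the shares over all genes. The anion transporter family member SLC26A10 rose by 2.42 (SE 0.28, adjusted p = 0.00037). SLC25A21 of mitochondria rose by 2.73 (SE 0.43, adjusted p = 0.0023), and SLC25A39, also of mitochondria, changed by -0.91 (SE 0.16, adjusted p = 0.0043). Of 108 small GTPase and actin regulators 9 were lower and 5 higher. FSCN1, which bundles actin, changed by -1.44 (SE 0.22, adjusted p = 0.0018), the kinase PAK1 by -1.37 (SE 0.22, adjusted p = 0.0023) and gelsolin, GSN, by -1.13 (SE 0.18, adjusted p = 0.0027). RRAS, a small GTPase of vessels, rose by 0.84 (SE 0.10, adjusted p = 0.00037) and its groups did not overlap. Without cyclic replicate 4 the 14 calls were 9. Called shares below that over all genes were seen for the lists of ubiquitin and the proteasome (8 of 153), lysosome and endosome (4 of 110), splicing (4 of 79) and translation factors (2 of 48). Leaving out 1 array gave as few as 3, 2, 1 and 1 calls in these lists, and up to 7 for lysosome and endosome.

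**Figure D4:**
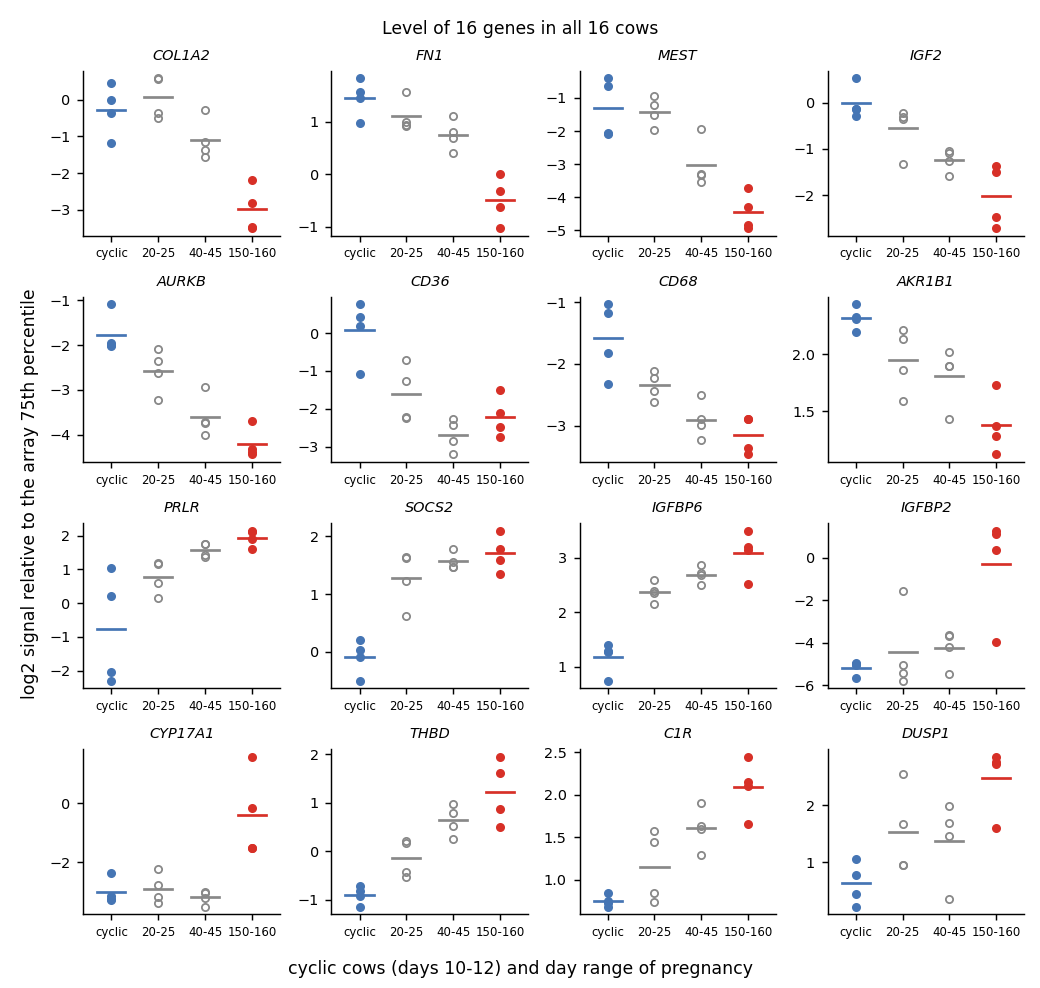
Levels of 16 genes, as log2 signal relative to the array's 75th percentile, in all 16 cows by group; each point is 1 cow and each bar a group mean, with cyclic cows in blue, days 150-160 in red and the other stages in open grey. The means of CYP17A1 on days 20-25 and 40-45 stay near the cyclic mean, while those of SOCS2, at 1.28 and 1.57, lie near the mean of 1.71 on days 150-160.

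Levels on the earlier days of pregnancy are given here for 4 of the named genes, beside those given above for others. No test between stages is given for these means. SOCS2 had means of -0.09 in cyclic cows and of 1.28, 1.57 and 1.71 on days 20-25, 40-45 and 150-160. IGFBP6 had means of 1.18, 2.37, 2.69 and 3.08 in the same order. COL1A2 had means of -0.27, 0.08, -1.10 and -2.99, and PYCARD of -2.01, -2.01, -1.75 and 0.13. These stages share the cyclic cows, so their differences from them are not independent. A check on arrays not used for the choice took the 370 probes called on the 8 arrays of cyclic and days 150-160 cows alone and compared days 40-45 with days 20-25 in the other 8 cows. Of these 370, 0 were called by limma, and 133 (35.9%) had an unadjusted p under 0.05, against 14.7% of all 11943 probes, of which 0 were called. The direction was that of the late comparison for 283 of the 370 (76.5%), against 53.3% of all probes. The 206 probes higher on days 150-160 had a median change of 0.20 in the other cows, and the 164 lower ones a median of -0.55. Arrays of cyclic cows shared a row of each slide with those of days 20-25. Those of days 40-45 shared the other row with those of days 150-160. Both comparisons thus cross the same rows, and this check cannot tell an effect of place apart from one of stage.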

How the data were processed

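Whole-gland RNA of 16 cows was measured on 1-colour arrays. The deposited scanner files, per the file headers, hold Agilent Feature Extraction 9.5 intensity values, background-subtracted as processed signals; the deposited series table holds log2 values of the same arrays. Processed signals of 15208 probes, without 536 control spots and with 36 outlier-flagged spots set missing, were log2 transformed after scaling to each array's 75th percentile. Probes well above background on at least 3 arrays of 1 group were tested (11943) in R 4.3.3 with limma 3.58.1, on all 16 arrays, with group and slide as terms and Benjamini-Hochberg adjustment at 0.05. A gene was read by its probe with the highest mean. Symbols came from the array's annotation and RefSeq gene names.

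Named genes were the 12 largest rises and 12 largest falls that did not overlap, the 6 largest bounds each way, up to 4 called members of each list by adjusted p, and 7 fixed genes; further called list members, VEGFA, INSL3 and ASIP were added after their values were seen. The members and lists were chosen with earlier results of these data known. Replicate numbers are not known to pair cows. The p-values measure the spread between these cows. Alternatives covered the slide, the replicate block, scaling, background, filter, the value table and each array left out. The test was checked on simulated data with known changes. Some genes that the rule names are not reported here.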

Additional observations from a re-analysis of the deposited data

Results flagged for a closer look

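For 32 of 364 combinations of a named gene and a group, 1 cow lay farther from the other 3 than Dixon's critical value allows. Chance alone flags about 1 in 20 such groups. No cause was tested for any of them.

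Among the cows of days 150-160, replicate 1 accounted for 9. It was the highest for AURKB (-3.68), BTC (-2.76), DAPL1 (-2.16), HLF (2.40), KCNMB1 (-3.85), SLC26A10 (-1.91), SLCO2A1 (0.31) and THY1 (0.79), and the lowest for DDX25 (-5.14). Replicate 3 was the highest for NPR2 (-1.11) and the lowest for DUSP1 (1.61), PYCARD (-0.97) and TYR (-7.19). Replicate 2 was the highest for GPX3 (0.64), and replicate 4 the lowest for TIMD4 (-2.92).

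Among the cyclic cows, replicate 2 accounted for 7. It was the highest for HSD11B2 (0.22), NEFM (-5.65) and P2RX5 (-6.87), and the lowest for ADAMTSL3 (-3.70), IL11RA (0.60), NDUFB1 (3.30) and UQCR11 (3.61). Replicate 3 was the highest for CYP17A1 (-2.36), FXYD3 (-5.54) and SLC26A10 (-4.25), and the lowest for ESR2 (-7.14), MRPL44 (-2.34) and TIMD4 (-1.0). Replicate 1 was the highest for AURKB (-1.09) and the lowest for IGFBP2 (-5.69) and SERPINA1 (-9.39). SERPINA1 was not well above background in any cyclic cow, so its flag does not show a difference in expression. ESR2 was well above background in only 3 cyclic cows. The cyclic cows other than replicate 2 had NEFM at -9.39 to -9.08, as low as SERPINA1. Dim signal limits these flags as well. Replicate 4 was the lowest for ANXA3 (1.52).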

How the results depend on the processing

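Of 1185 called probes, 684 higher and 501 lower, slide 1 alone gave 254 (157 and 97), slide 2 alone 21 (9 and 12) and the 8 compared arrays alone 370 (206 and 164); these fits hold fewer cows. Leaving out 1 array gave 693 to 1461 calls, 404 to 811 higher and 289 to 650 lower. Calls fell past 1.5 times without cyclic replicate 4 and without replicate 2 of days 150-160, and for higher calls also without replicate 1 of days 150-160 (433). Other scalings, filters and backgrounds kept the total within 1.5 times. With normexp 65.3% of calls were higher, with median scaling 61.4% and in the main comparison 57.7%.

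With the replicate number as a block 1086 probes were called, 1013 of them shared with the main comparison. Same-numbered cows of the groups deviated together at correlations of 0.02 to 0.17, and 2 of 4 numbers matched best with their own, so the numbers were not taken to pair cows.

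Of the 182 named genes, only ESR2 and PLA2G4A reversed, to 0.057 and 0.060 when values below background were raised to it; neither was well above background in any pregnant cow. Dim probes limit what can be said of falls: 41 called probes stayed under that limit in every cow of days 150-160, and 18 in every cyclic cow.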

Other observations

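In the cow of days 150-160 numbered 4, the 2 tested markers of androgen-making theca cells, INSL3 and CYP17A1, were each highest among the cows compared. INSL3, a peptide hormone of theca and luteal cells, was at 5.30, 5.53, 6.15 and 5.98 in the cyclic cows and at 5.39, 5.01, 2.70 and 7.10 in the pregnant ones, a difference of -0.69 that limma did not call (adjusted p = 0.63). CYP17A1 was highest in the same cow, at 1.56. The pregnant cow with the next highest CYP17A1, numbered 2, had INSL3 at 5.01, below every cyclic cow. The summed level of the 2 theca markers was 39.4 to 71.2 times the 75th percentile in cyclic cows and 6.84 to 139.8 in pregnant cows. This sum is mostly INSL3, the brighter of the markers.

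ASIP, the agouti signalling protein, was at -0.78, -6.63, -0.73 and -0.87 in cyclic cows and at -6.13, -7.12, -6.63 and -7.01 in pregnant cows (log2 change -4.47, limma adjusted p = 0.011). Cyclic replicate 2 read like the pregnant cows, while the other 3 cyclic cows were close to 6 units higher. Both genes were chosen after their values were seen.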
